A study of Mus musculus with 8 samples.

Results

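The 44 genes described here are cell proliferation genes, a list set by gene function and chosen with earlier results of these data known, out of 18193 genes with values on the arrays. 16 of them act in or just before S phase and 28 act in mitosis. 43 of the 44 had a value, since no probe set carried Ccnb1, a cyclin of mitotic entry, as its only symbol. Where a gene had several probe sets, the one with the highest mean log2 signal over the 8 arrays was taken.

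A cell that enters the cycle first builds the machinery that copies its DNA, and only later the machinery that parts the copies. The E2F transcription factors switch on the first set, which holds the Mcm helicase, the clamp Pcna and the enzymes that supply nucleotides. The second set, with cyclin B, Cdk1 and the kinetochore and spindle proteins, is held off in resting cells by the DREAM complex and switched on later by B-Myb and Foxm1, through a promoter element called the cell cycle genes homology region. The airway epithelium of the adult mouse trachea turns over slowly, and its basal cells are the stem cells that divide to renew it.

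The mice were C57Bl/6 females, 4 old ones of 14 months and 4 young ones of 2 months, and RNA came from the distal trachea with the carina, with no genetic alteration or treatment named, and each mouse had its own Affymetrix Mouse Genome 430 2.0 array. The old mice are numbered 1, 2, 5 and 6 and the young mice 3, 4, 7 and 8, and per-mouse values are given in that order. The values are signals on a linear intensity scale in arbitrary units, with the same trimmed mean of 500.002 on every array. The tissue was whole, so each value pools epithelium, cartilage, connective tissue and immune cells, and fewer cells of a type and less RNA per cell cannot be told apart. Markers of ciliated and secretory epithelium, which define the tissue, were bright at both ages, with a summed signal over 8 genes of 104936 to 123917 in old mice and 111246 to 126183 in young mice.

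Over the 45037 probe sets other than controls, arrays of mice of the same age correlated at 0.951 to 0.958 in log2 signal. Arrays of different ages correlated at 0.947 to 0.952, and no array stood apart. Old and young mice were compared by limma over all 18193 genes, with Benjamini-Hochberg adjustment across the full set, and fold changes are log2 values of old minus young. With the threshold at an adjusted p of 0.05, 67 of all genes (0.368%) rose and 33 (0.181%) fell in old mice, and with any 1 mouse left out these counts were 8 to 24 and 3 to 24. With an unadjusted p under 0.05, 1329 genes (7.31%) were higher and 1325 (7.28%) lower with age. All 4 old mice lay above all 4 young mice for 913 genes (5.02%) and below them for 929 (5.11%). For 32 of the 43 proliferation genes the mean signal lay under 349, the value of the median gene, and array signals are noisier there, with a median SD of log2 signal of 0.37 for the genes below the median gene and 0.13 for those above it.

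The promoters of the 44 genes were searched for the elements that these factors are known to use. RefSeq promoters of 300 bases, from 250 before the transcription start, were at hand for 36 of the 44 genes, on the GRCm38.p6 build. Both strands were read for 4 E2F motifs (TTTCCCGC, TTTGGCGC, TTTCGCGC and TTCCCGCC, of which the first and the last can overlap in 1 stretch), for the homology region (TTTGAA or TTCGAA) and for CCAAT, the box bound by NF-Y. An E2F motif was found in 7 of 13 S phase promoters (53.8%), 1 of 23 mitosis promoters (4.35%) and 4% of all 27025 promoters. The homology region was found in 2 of 13 S phase promoters (15.4%), 17 of 23 mitosis promoters (73.9%) and 21.7% of all promoters. CCAAT was found in 9 of 13 S phase promoters (69.2%), 17 of 23 mitosis promoters (73.9%) and 41.1% of all promoters. A match is a run of letters and not a shown binding site, and the shares are a description with no test.

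**Figure D1:**
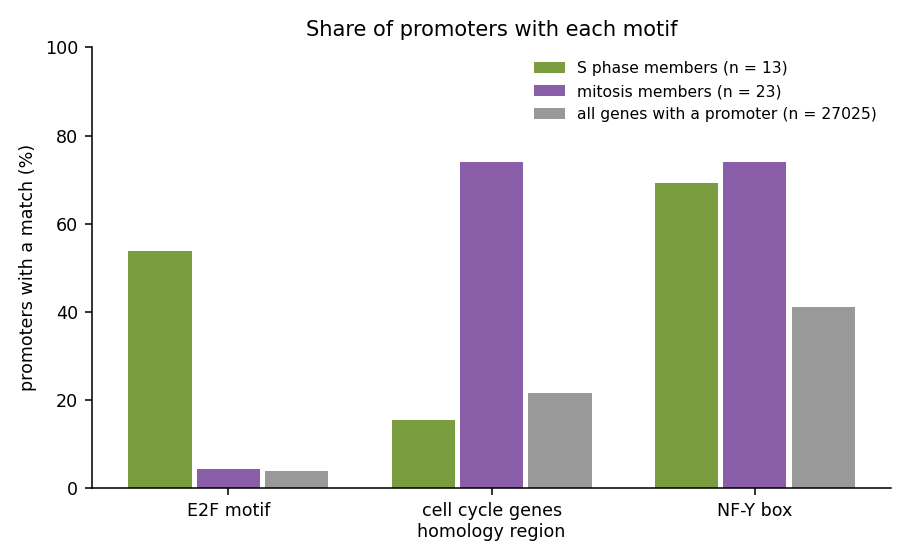
Share of promoters, in percent of the promoters in each set, with at least 1 match on either strand to an E2F motif, the cell cycle genes homology region or the NF-Y box. Bars stand for the 13 S phase members, the 23 mitosis members and all 27025 promoters, and the E2F motif is most frequent among S phase members (53.8%) while the homology region is most frequent among mitosis members (73.9%).

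Promoters are printed for Mcm6 (chr1:128359656-128359955, minus strand) of S phase and for Top2a (chr11:99024140-99024439, minus strand) and Cdk1 (chr10:69352863-69353162, minus strand) of mitosis. Cdk1 is the mitosis gene whose promoter holds both kinds of element. The sequences run 5′ to 3′ on the strand of the gene. Capitals mark the E2F motifs in Mcm6, the homology region in Top2a, and both in Cdk1.
Mcm6: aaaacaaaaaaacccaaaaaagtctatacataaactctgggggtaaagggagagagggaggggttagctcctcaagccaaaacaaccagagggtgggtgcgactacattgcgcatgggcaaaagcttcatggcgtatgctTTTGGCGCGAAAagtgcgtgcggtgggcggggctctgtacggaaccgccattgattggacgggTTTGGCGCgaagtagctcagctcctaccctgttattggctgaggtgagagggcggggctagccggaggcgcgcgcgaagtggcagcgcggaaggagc
Top2a: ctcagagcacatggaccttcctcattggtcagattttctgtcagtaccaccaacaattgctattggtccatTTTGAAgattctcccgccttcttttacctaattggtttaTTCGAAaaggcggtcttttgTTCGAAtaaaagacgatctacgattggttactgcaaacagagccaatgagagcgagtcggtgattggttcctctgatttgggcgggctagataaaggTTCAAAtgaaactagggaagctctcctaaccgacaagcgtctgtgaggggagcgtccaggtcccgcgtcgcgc
Cdk1: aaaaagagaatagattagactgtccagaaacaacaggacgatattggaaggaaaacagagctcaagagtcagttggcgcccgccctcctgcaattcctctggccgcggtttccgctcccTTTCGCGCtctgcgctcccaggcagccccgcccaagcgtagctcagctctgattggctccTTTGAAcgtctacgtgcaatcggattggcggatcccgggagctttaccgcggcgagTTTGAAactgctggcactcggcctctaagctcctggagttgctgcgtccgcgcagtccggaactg
In the Mcm6 promoter 2 of the 3 E2F matches overlap on opposite strands, from 110 bases before the start, and the other lies 47 bases before it. The Top2a promoter holds 4 homology region matches and 6 CCAAT boxes. The Cdk1 promoter holds homology region matches 71 and 15 bases before the start and an E2F match 131 bases before it. Within the S phase list, Chek1, Mcm3, Mcm5, Mcm6, Mcm7, Rrm1 and Uhrf1 held an E2F motif, and the windows of E2f1, Mcm2, Pcna, Rrm2, Tk1 and Tyms held none of these letters.

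S phase genes were higher in old mice more often than not. The log2 fold change was above 0 in 13 of the 16 genes and below 0 in 3, with a median of 0.28 against -0.0047 over all genes. None passed an adjusted p of 0.05 in either direction, by limma or by an ordinary test without moderation, where 0.368% of all genes were called higher and 0.181% lower. At an unadjusted p under 0.05, 6 of the 16 (Pcna, Mcm6, Mcm4, Mcm3, Mcm5 and Chek1) were higher with age and 0 were lower, beside 7.31% and 7.28% of all genes. For 5 of the 16 (Mcm3, Mcm4, Mcm6, Pcna and Chek1) the 4 old signals all exceeded the 4 young ones, beside 5.02% of all genes, and for 0 of the 16 they all lay below.

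The Mcm proteins form the helicase that opens DNA ahead of the replication fork, and the 4 of its 6 measured subunits that were higher at an unadjusted p are taken first. Mcm6 had signals of 1896, 1062, 1335 and 1303 in old mice, against 794, 959, 795 and 761 in young mice. The lowest old mouse, mouse 2, lay above the highest young mouse, mouse 4. This is a log2 fold change of 0.73 ± 0.18 (SE, n = 4 and 4), with an adjusted p of 0.127 by limma. A second bright Mcm6 probe set gave 0.42 and a dim one -0.16, and the mean of the 3 gave 0.33.

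Mcm5 averaged 687 ± 203 in old mice and 398 ± 59.9 in young mice (SD, n = 4 each). Its signals were 914, 444, 777 and 614 in old mice, against 413, 463, 318 and 399 in young mice, so that old mouse 2 fell between young mice 3 and 4. Its log2 fold change was 0.75 ± 0.23 (SE), with an adjusted p of 0.204 by limma, and its value was 0.44 as the mean of all its probe sets.

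Mcm4 signals were 1335, 964, 1101 and 929.9 in old mice, against 782, 738, 798 and 796 in young mice. The ages did not overlap, and the young mice lay close together. Mcm4 had a log2 fold change of 0.46 ± 0.12 (SE; adjusted p = 0.15 by limma), and the other Mcm4 probe set gave 0.47. Mcm3 signals were 511, 298, 423 and 369.6 in old mice, against 252, 262, 286 and 266 in young mice. Mcm3 too did not overlap between ages, with a log2 fold change of 0.56 ± 0.16 (SE; adjusted p = 0.171 by limma). Without the probe sets that may hybridise to several transcripts, its value came from another probe set and was 0.22, with an unadjusted p of 0.263 by limma.

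Old mouse 1 was the highest of the 8 mice and old mouse 2 the lowest of the old mice in Mcm5, Mcm6 and Mcm3, 3 genes whose products sit in the same ring. In Mcm7, another subunit, signals were 1541, 1143, 1383 and 1193 in old mice and 1174, 1233, 960.5 and 1122 in young mice. They overlapped, and the log2 fold change of 0.22 (95% interval -0.07 to 0.51) did not pass the test. Mcm2 gave 0.06 on its brightest probe set, where its 4 old mice also overlapped with the young mice, and 0.49 on its other probe set. Gins1 and Gins2, which belong to the GINS complex that joins the Mcm ring in the active helicase, gave 0.03 and -0.45 and did not pass.

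Pcna, the ring-shaped clamp that holds DNA polymerase on its template, had the smallest p of all the proliferation genes. Its signals were 3871, 3812, 3856 and 3868 in old mice, against 2823, 2925, 3329.8 and 3196 in young mice. The old mice lay within a narrow band above all the young mice, and averaged 3851 ± 27.1 against 3068 ± 235 in young mice (SD, n = 4 each). Its log2 fold change was 0.33 ± 0.07 (SE), with an adjusted p of 0.106 by limma. Pcna passed an adjusted p of 0.05 under 4 alternatives, with limma p-values of 0.0457 and 0.0449 after a floor of 32 or 64 on the signal, 0.0280 over genes brighter than the median gene and 0.0211 with a trended variance prior. Mcm6 (0.0261 and 0.0252) and Mcm4 (0.0400 and 0.0463) passed under the last 2 of these. Pcna also serves in DNA repair, and its single probe set does not tell these uses apart.

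The enzymes that supply nucleotides did not part the ages as Pcna did. Rrm2, the regulated subunit of ribonucleotide reductase, had signals of 451, 414, 334 and 412 in old mice and 437, 514, 518 and 411 in young mice. The ages overlapped, with a log2 fold change of -0.22 (95% interval -0.51 to 0.06). Rrm1, its partner subunit, gave 0.0032 with an interval of -0.31 to 0.32. Tk1, which makes thymidine monophosphate, had signals of 90.5, 70.6, 90.1 and 89.4 in old mice, against 117, 115, 17.2 and 26.9 in young mice. Young mice 3 and 4 lay above all the old mice and young mice 7 and 8 below them, so that the log2 fold change of 0.76 has an interval of -0.73 to 2.26. Tyms, thymidylate synthase, was dim, at 7.9 to 41.5 in old mice and 14.2 to 55.4 in young mice, and its log2 fold change of -0.40 had an interval of -1.82 to 1.03.

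Among the S phase regulators, Chek1, the kinase of the DNA replication checkpoint, had signals of 179, 149, 197 and 148 in old mice, against 137, 127, 139 and 121 in young mice. The ages did not overlap, and the log2 fold change was 0.35 ± 0.11 (SE; adjusted p = 0.222 by limma). As the mean of its 5 probe sets Chek1 gave 0.16, with an unadjusted p of 0.298 by limma. E2f1, the transcription factor at the head of the S phase programme, had 105, 122, 152 and 114 in old mice and 92, 158, 111 and 104 in young mice, with a log2 fold change of 0.10 (95% interval -0.34 to 0.54) that turned to -0.0056 without old mouse 5 and -0.00086 without young mouse 3. Uhrf1, which carries DNA methylation through replication, gave 0.40 and did not pass.

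**Figure D2:**
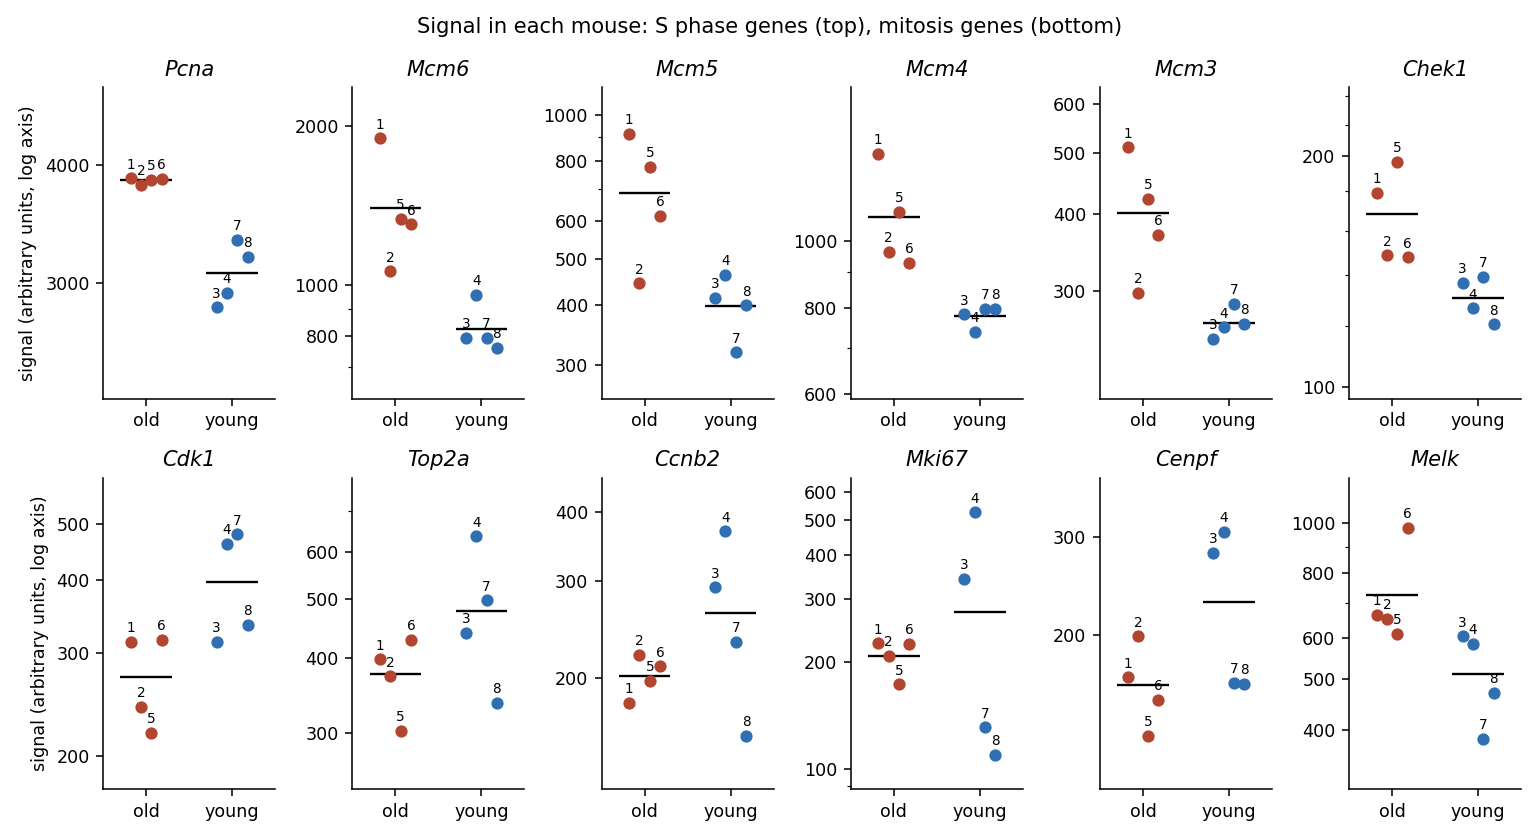
Signal (arbitrary units, log axis, a separate scale in each panel) of 6 S phase genes in the upper row and 6 mitosis genes in the lower row, 1 point per mouse with its number and a line at the mean, old mice left and young mice right. In Pcna, Mcm6, Mcm4, Mcm3, Chek1 and Melk the old points all lie above the young ones, while in Mki67 the young mice reach both above and below all the old mice.

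Most mitosis genes had lower values in old mice, none of them past the adjusted threshold. Of the 27 measured, 7 were above 0 and 20 below 0 in log2 fold change, with a median of -0.22. None passed an adjusted p of 0.05, the lowest adjusted p among them being 0.260 by limma, and none passed by an ordinary test without moderation. At an unadjusted p under 0.05, Melk and Tpx2 were higher in old mice and Cdk1 was lower, which is 2 and 1 of 27 beside 7.31% and 7.28% of all genes. Melk was the 1 gene whose old signals all exceeded the young ones, and in 0 genes did they all lie below, beside 5.02% and 5.11% of all genes. These small counts turned on single mice. The count of lower genes was 6 without young mouse 8 and 0 without old mouse 2, old mouse 5, young mouse 4 or young mouse 7. The count of higher genes was 3 without old mouse 2, 0 without old mouse 6 or young mouse 7, and 1 with any other mouse left out, and the median lay between -0.41 (without young mouse 8) and -0.08 (without young mouse 4). By contrast 6 or 7 S phase genes were higher whichever mouse was left out. The difference between the S phase and the mitosis list was not tested.

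Cdk1 is the kinase that, with cyclin B, drives the cell into mitosis. Its signals were 313, 242, 219 and 316 in old mice, against 313, 461, 479.6 and 335 in young mice. Young mouse 3 fell among the old mice. The log2 fold change was -0.54 ± 0.19 (SE; unadjusted p = 0.0241 and adjusted p = 0.26 by limma), and the unadjusted p was 0.0607 to 0.0638 without old mouse 2, old mouse 5, young mouse 4 or young mouse 7. Ccnb2, a B-type cyclin, had 180.0, 220.3, 198 and 209.9 in old mice, against 292, 368, 232 and 157 in young mice. In Ccnb2 young mice 3, 4 and 7 lay above the old mice and young mouse 8 below them, and the log2 fold change of -0.31 ± 0.25 (SE) did not pass. Ccna2, a cyclin of S phase and early mitosis, gave -0.02 with a 95% interval of -0.39 to 0.34.

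Melk, a kinase of dividing progenitor cells, ran the other way. Its signals were 665, 654, 611 and 977 in old mice, against 605, 586, 384 and 471 in young mice. The ages did not overlap, but old mouse 5 and young mouse 3 lay close together. The log2 fold change was 0.50 ± 0.20 (SE; unadjusted p = 0.037 and adjusted p = 0.301 by limma), and the unadjusted p was 0.0532 to 0.09 without old mouse 1, old mouse 6, young mouse 7 or young mouse 8. Foxm1, the factor that activates mitosis genes, had 260.4, 149.7, 281 and 280.2 in old mice and 177, 208, 201 and 257 in young mice. Foxm1 gave 0.17 ± 0.23 (SE) on its brightest probe set and -0.39 as the mean of its 4 probe sets, of which the other 3 were dim.

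Mki67 encodes the chromosome surface protein Ki-67, the usual marker of cycling cells. Its signals were 225, 208, 173 and 225 in old mice, against 342, 525, 131 and 109.9 in young mice. The old mice lay between young mice 3 and 4 above and young mice 7 and 8 below. The log2 fold change of -0.12 has a 95% interval of -1.27 to 1.02, which takes in a fold of 2 in either direction, and the value was 0.08 without young mouse 3 and 0.28 without young mouse 4. Top2a, the topoisomerase that untangles chromosomes, had 398, 373, 303 and 428 in old mice, against 440.0, 637, 498 and 337 in young mice. Here 3 of 4 young mice lay above every old mouse, and the log2 fold change of -0.32 ± 0.20 (SE) did not pass. A second Top2a probe set gave 0.02 and a dim one -0.65. Cenpa, the histone that marks the centromere, had 147, 151, 132 and 151 in old mice, against 186, 238, 174 and 119 in young mice, with a log2 fold change of -0.26 ± 0.20 (SE).

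Of the 9 genes of the kinetochore and its checkpoint, 4 were above 0 and 5 below 0 in log2 fold change, and none passed at an unadjusted p under 0.05. Cenpf, a large protein of the outer kinetochore, had 168, 199, 132 and 153 in old mice, against 281, 307, 164 and 163 in young mice. Young mice 7 and 8 fell among the old mice and young mice 3 and 4 above them. Cenpf had a log2 fold change of -0.45 ± 0.25 (SE), and 0.13 as the mean of its 3 probe sets. Nuf2, a subunit of the Ndc80 complex that holds microtubules, had 157, 131, 77.3 and 112 in old mice, against 146, 233, 146 and 115 in young mice, with a log2 fold change of -0.42 ± 0.28 (SE). The other genes were Bub1 (0.13), Bub1b (-0.14) and Ttk (-0.36) of the spindle checkpoint, Aurkb (0.04) and Birc5 (0.09) of the chromosomal passenger complex, Cenpe (-0.24), a kinetochore motor, and Ndc80 (0.36), with signals of 4.41 to 27.6 in old mice and 3.22 to 22.7 in young mice.

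Of the 8 genes of the spindle and cytokinesis, 7 had a negative log2 fold change. Tpx2, which activates Aurora A on the spindle, was the exception, with 188, 192, 214 and 226 in old mice, against 169.5, 166, 180.3 and 189 in young mice. Old mouse 1 lay just under young mouse 8, and the log2 fold change was 0.22 ± 0.09 (SE; unadjusted p = 0.0382 and adjusted p = 0.306 by limma) on the brightest of its 4 probe sets and 0.0049 as their mean. Plk1, a kinase of mitotic entry and exit, had 69.7, 50.1, 71.3 and 32.8 in old mice, against 75.7, 95.7, 83.1 and 41 in young mice, with a log2 fold change of -0.40 ± 0.34 (SE). Kif11, the motor that pushes the spindle poles apart, had 173, 149, 199 and 85.7 in old mice, against 193, 241, 189 and 136 in young mice. Kif2c, a microtubule depolymerase, had 119, 134, 109.7 and 123 in old mice, against 125, 171, 218 and 96.6 in young mice. The ages overlapped in Plk1, Kif11 (-0.36) and Kif2c (-0.27), and likewise in Kif20a (-0.27), Prc1 (-0.22), Aurka (-0.12) and Nusap1 (-0.04).

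The anaphase promoting complex ends mitosis by marking cyclin B and securin for destruction. Its activator Cdc20 had signals of 477, 382, 522 and 329 in old mice, against 574, 594, 633 and 317 in young mice. Young mice 3, 4 and 7 lay above every old mouse and young mouse 8 below every old mouse, and the log2 fold change of -0.28 ± 0.25 (SE) did not pass. Ube2c, the ubiquitin-conjugating enzyme of the complex, gave -0.09 with a 95% interval of -0.92 to 0.75.

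**Figure D3:**
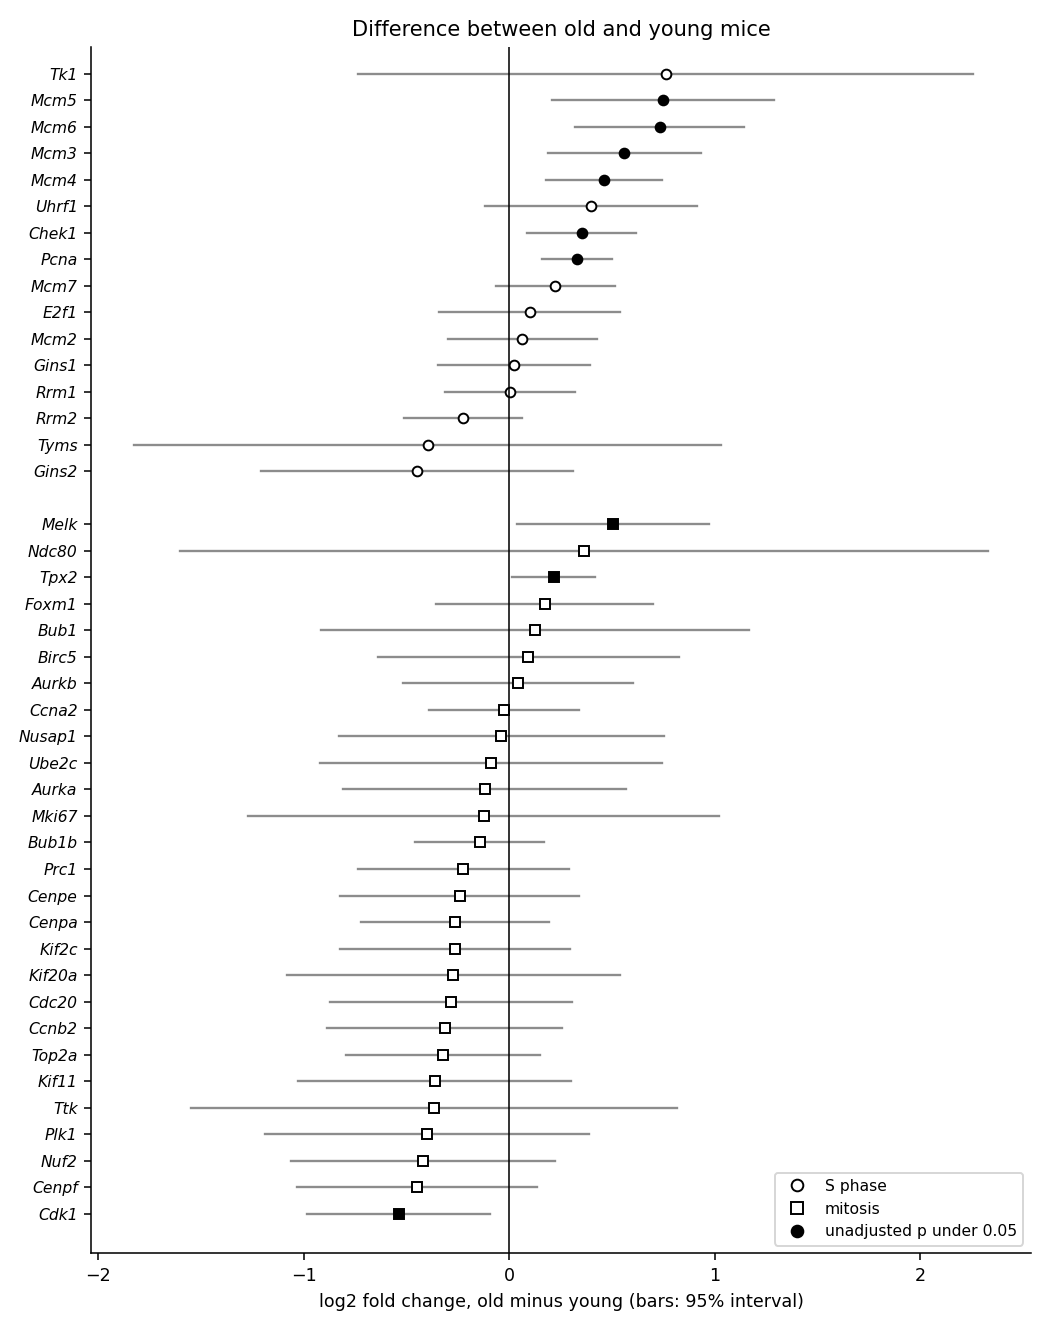
Log2 fold change of old minus young mice (x axis) for the 16 S phase genes (circles, upper block) and the 27 measured mitosis genes (squares, lower block), with bars for the 95% interval from limma and filled marks for an unadjusted p under 0.05. S phase genes run from -0.45 to 0.76 around a median of 0.28 and mitosis genes from -0.54 to 0.50 around a median of -0.22, and no gene passes an adjusted p of 0.05.

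The 27 mitosis genes varied together among the young mice, a pattern chosen after the values were seen. Each gene's log2 signal was set against its own mean, and the average over the 27 genes stood at 0.02, -0.06, -0.12 and -0.11 in old mice, against 0.26, 0.54, -0.06 and -0.46 in young mice. The SD over mice was 0.06 in old mice and 0.43 in young mice. Young mouse 4 had the highest average of the 8 mice and young mouse 8 the lowest, and the old mice lay between young mouse 3 and young mouse 8. In 17 of 27 mitosis genes (63.0%) young mice 3 and 4 both lay above young mice 7 and 8, which held for 6 of 16 S phase genes (37.5%) and for 21.2% of all genes. It held for 26 of 77 other mitosis genes (33.8%) and 21 of 60 other S phase genes (35%). The reverse order held for 1 of the 27. These shares carry no test, and the genes of 1 mouse share its RNA and array.

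The same average over the 16 S phase genes was 0.33, -0.05, 0.02 and 0.16 in old mice, against 0.0021, 0.00018, -0.23 and -0.24 in young mice. Here the spread was similar at the 2 ages, with an SD of 0.17 in old mice and 0.13 in young mice, and old mouse 2 lay just below young mice 3 and 4. Over the 8 S phase genes brighter than the median gene, the average was 0.37, -0.04, 0.15 and 0.10 in old mice, against -0.16, -0.0033, -0.23 and -0.20 in young mice.

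**Figure D4:**
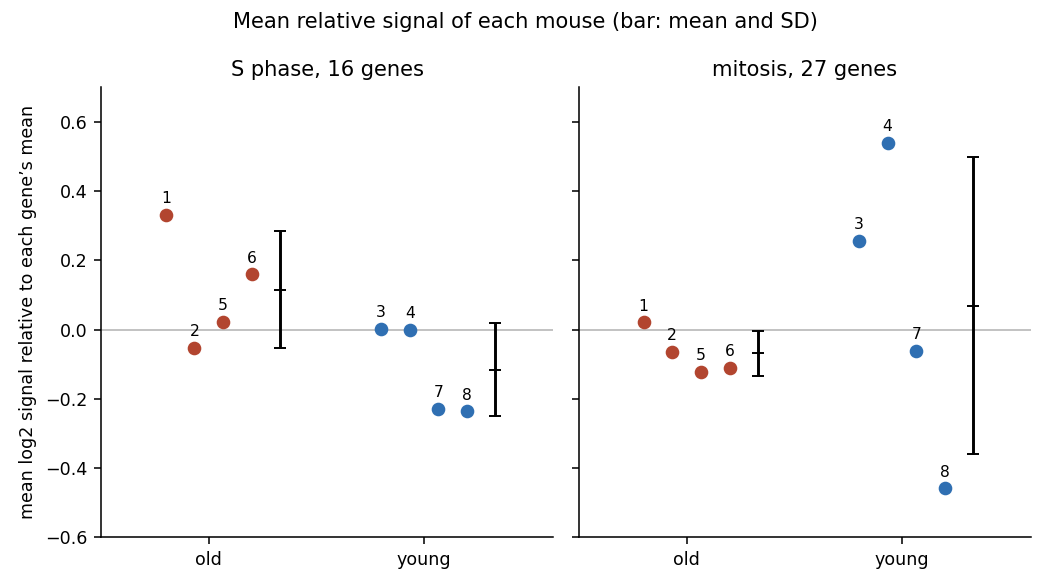
Log2 signal of each mouse, set against each gene's own mean and averaged over 16 S phase genes (left panel) and 27 mitosis genes (right panel), old mice left and young mice right, with mouse numbers and a bar for the mean and SD. Mitosis values span 0.02 to -0.12 among old mice and 0.54 to -0.46 among young mice, while in S phase old mouse 1 is the highest at 0.33.

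**Figure D5:**
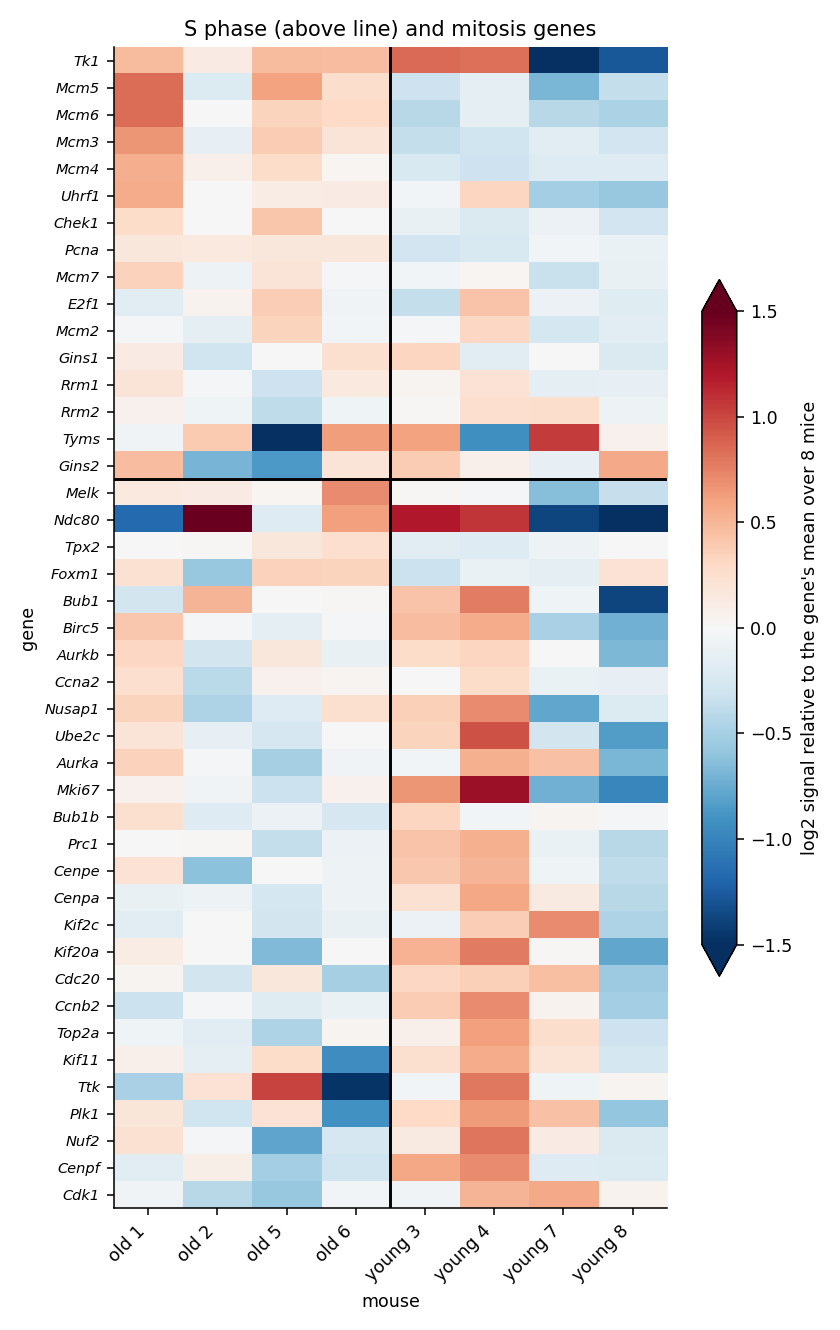
Log2 signal of each of the 43 measured genes (rows, S phase above the line and mitosis below it, ordered by fold change) relative to its mean over the 8 mice, by mouse (columns, old mice left and young mice right), with colours ending at -1.5 and 1.5. Many mitosis rows are red in young mice 3 and 4 and blue in young mouse 8, and the Mcm3, Mcm4, Mcm5 and Mcm6 rows are red in old mouse 1.

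Several probe sets measured 31 of the 43 genes. Among the S phase genes 21 of 29 further probe sets had the sign of the brightest one, and 15 of the 15 with a mean signal of 100 or more did. Among the mitosis genes 17 of 29 had the same sign, and 7 of the 11 with a mean signal of 100 or more.

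Further lists of cell cycle genes were read beside these. Of 63 other S phase genes 60 were measured, with a median of 0.06, and at an unadjusted p under 0.05 there were 5 higher and 6 lower in old mice, beside 7.31% and 7.28% of all genes. None of the 60 passed an adjusted p of 0.05. Gmnn, geminin, which blocks a second round of replication, came closest, with 863, 811, 761 and 1063 in old mice, against 1589, 1717, 1313 and 1278 in young mice. All 4 old mice lay below the young mice, with a log2 fold change of -0.75 ± 0.14 (SE; adjusted p = 0.0759 by limma). Brca1, of recombination repair, gave -0.48 (adjusted p = 0.116) and Pola2, a subunit of DNA polymerase alpha, -0.41 (adjusted p = 0.196), both lower in old mice. Prim1, the primase of the same polymerase, gave 0.37 (adjusted p = 0.152). The difference between this list and the 16 S phase genes was not tested. Ccne1, cyclin E1, gave 0.05 and Mybl2, a partner of the DREAM subunits in late S phase, -0.05.

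Of 79 other mitosis genes 77 were measured, and 19 were above 0 and 58 below 0 in log2 fold change, with a median of -0.14. At an unadjusted p under 0.05 there were 3 higher and 6 lower in old mice, again beside 7.31% and 7.28% of all genes, and none passed an adjusted p of 0.05. Smc4, a core subunit of condensin, had 1479, 1388, 1366 and 1509 in old mice, against 1675, 1953, 1701 and 1780.0 in young mice. The old mice all lay below the young mice, with a log2 fold change of -0.31 ± 0.08 (SE; adjusted p = 0.135 by limma). Ncapd2, of condensin I, gave -0.63, Nek2, a centrosome kinase, -0.42 and Ncapg2, of condensin II, 0.23, each with an unadjusted p under 0.05 and an adjusted p of 0.221 to 0.281 by limma.

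Of 22 genes of G1 cyclins, kinases and E2F control, at an unadjusted p under 0.05, 4 were higher and 1 was lower in old mice. This stands beside 7.31% and 7.28% of all genes, and the median of the list was 0.07. Myc, a transcription factor of growth and cycle entry, had 171, 187, 163 and 159 in old mice, against 81.3, 113, 109.6 and 129 in young mice. All old mice lay above all young mice, with a log2 fold change of 0.67 ± 0.14 (SE; adjusted p = 0.101 by limma). Ccnd1, cyclin D1 of G1, had 5867, 4826, 6314 and 4655 in old mice, against 4328, 4316, 4491 and 4148 in young mice, again without overlap, with a log2 fold change of 0.31 ± 0.11 (SE; adjusted p = 0.259 by limma). Ccnd3, cyclin D3, gave 0.18 and Tfdp2, a dimer partner of E2F, -0.33, while Ccnd2 gave 0.06.

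The 12 inhibitors of the cycle went both ways. Cdkn1c, which encodes p57, had 1772, 1742, 1751 and 1553 in old mice, against 989.9, 1135, 1152 and 1434 in young mice. Again the ages did not overlap, with a log2 fold change of 0.54 ± 0.12 (SE; adjusted p = 0.106 by limma). Cdkn1b, which encodes p27, had 3473, 3233, 3414 and 3564 in old mice, against 4083, 4307, 3939 and 4336 in young mice, all old mice below, with a log2 fold change of -0.28 ± 0.07 (SE; adjusted p = 0.118 by limma). Cdkn2d, p19, gave -0.16, Gadd45g, a stress-response inhibitor, 0.30 and Cdkn1a, p21, 0.06. Among the young mice these 12 genes averaged -0.08, -0.24, 0.06 and 0.15 in mice 3, 4, 7 and 8. Mice 3 and 4 thus lay below mice 7 and 8, unlike in the mitosis genes, a pattern chosen after the values were seen. In 7 of the 12 genes (58.3%) mice 3 and 4 both lay below mice 7 and 8, beside 20.4% of all genes. In 0 of the 12 did both lie above. The place of mouse 4 below mouse 3 rests in part on Cdkn2a, a dim gene at 7.89 in mouse 4, and was not tested.

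Markers of several cell types differed between the ages beside the S phase genes. The counts here are at an unadjusted p under 0.05, at which 7.31% of all genes were higher with age. Of 8 measured B cell markers 4 were higher, with a summed signal of 2774 to 3477 in old mice and 2495 to 2740.2 in young mice. Of 7 measured T cell markers 6 were higher, with sums of 1013 to 1421 in old mice and 624 to 773 in young mice. Of 8 macrophage markers 5 were higher, with sums of 12704 to 15154 in old mice and 10951 to 12273 in young mice. Of 8 basal epithelial markers 5 were higher (Dlk2, Krt14, Krt5, Pdpn and Krt15), with sums of 22241 to 25661 in old mice and 17862 to 21606 in young mice. The basal markers Trp63 (-0.05), Aqp3 (-0.10) and Ngfr (0.06) overlapped between the ages. The part of these cells in the S phase differences was not tested.

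Several connective tissue genes were lower in old mice. Of 8 fibroblast markers 4 were lower at an unadjusted p under 0.05, beside 7.28% of all genes. All 4 are collagen genes (Col1a1, Col1a2, Col3a1 and Col14a1), while Pdgfra (-0.06), Dcn (-0.07), Dpt (-0.09) and Lum (0.01) overlapped between the ages. Col1a2, a chain of type I collagen, fell at an adjusted p of 0.0445 by limma, by 0.58 on the log2 scale. The summed signal of the 8 markers, collagens among them, was 72825 to 79166 in old mice and 90408 to 101485 in young mice. Of 9 cartilage cell markers 3 were lower and 1 was higher at that unadjusted p, beside 7.28% and 7.31% of all genes. Their sums were 16139 to 22494 in old mice and 13426 to 31838 in young mice. The part of these connective tissue cells in the mitosis differences was not tested either. In the young mice the cartilage markers averaged -0.64, 0.35, 0.17 and 0.64 in mice 3, 4, 7 and 8, and the fibroblast markers averaged 0.33, 0.33, 0.12 and 0.09. Mice 3 and 4 lay above mice 7 and 8 in the 4 collagen genes and Dpt. In Pdgfra, Dcn and Lum mouse 8 was the highest of the young mice. These orders were read after the values were seen, and their relation to the mitosis genes was not tested.

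The summed signals of squamous and skeletal muscle markers, genes of neighbouring tissues, differed too, each mainly through 1 gene, and the genes of both lists went both ways. Over 8 markers of squamous epithelium, as in the oesophagus, the summed signal was 2081 to 3197 in old mice and 1517 to 1787 in young mice. Krt4, a keratin of that tissue, gave a log2 fold change of 1.39 (adjusted p = 0.0682 by limma), and Sbsn gave -0.42 (adjusted p = 0.207 by limma). Krt4 averaged 1422 in old mice and 540 in young mice, and every other gene of the list overlapped between the ages. Of the 8, 5 were above 0 and 3 below 0, with a median of 0.09. Over 8 skeletal muscle markers the summed signal was 1659 to 2351 in old mice and 2502 to 3313 in young mice. Tnnt3, a fast muscle troponin, gave -1.09 (adjusted p = 0.106 by limma) and Ckm -0.46. Tnnt3 averaged 785 in old mice and 1614 in young mice, and every other muscle marker overlapped between the ages. Of the 8, 4 were above 0 and 4 below 0 in log2 fold change, with a median of 0.015. The part of these tissues in the results was not tested. The 9 measured thymocyte markers, genes of T cell precursors, all lay under the median gene, with sums of 545 to 1200.3 in old mice and 449 to 650.3 in young mice. Old mouse 6 alone gave the top of the old range. Rag1 was the 1 of them with an unadjusted p under 0.05, at 46.2, 2.19, 17.5 and 429 in old mice and 0.83 to 2.80 in young mice, so that old mouse 6 stood far above the rest.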

How the data were processed

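The deposited table holds intensity values, a linear signal for each of 45101 probe sets on 8 arrays, as the authors processed them. The methods name robust multichip analysis in Partek, whereas values on a linear scale with a common trimmed mean (2% left out at each end) are typical of scaling array by array, so how the signals were made is not settled. No detection call was used, so no probe set is called absent. Array medians lay between 150.0 and 160.8, and the number of arrays limits the precision.

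64 control probe sets were left out. Of 45037 others, the platform annotation gives 34945 a single symbol, 932 several and 9160 none, and only the first were named. The log2 signals were fitted in R 4.3.3 by the lmFit and eBayes functions of limma 3.58.1, two-sided, with age alone, since the methods do not name the second factor of their analysis of variance. The fit was tested on simulated data with known changes. P-values set the difference between the ages against the spread between mice of the same age, and limma moderates that spread with the other genes.

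The members and lists were chosen with earlier results of these data known. Values of every mouse are given for Mki67, Top2a, Pcna, Cdk1, Foxm1 and E2f1 and the members with the smallest p, up to 8 of S phase and 12 of mitosis. From each other list up to 4 genes with the smallest p are named, and Ccnd1, Ccnd2, Ccne1, Myc, Mybl2, Cdkn1a, Cdkn1b and Cdkn1c. Tk1, Tyms and Ndc80 were given values by mouse or range after these were seen, and Cdc45, Gins3 and Gins4 were named after their values were seen. Alternatives were each mouse left out, quantile normalization or centring, floors, brighter genes, other choices of probe set, other variance estimates, a fold threshold and mouse numbers as a term. Promoter sequences are from RefSeq.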

Additional observations from a re-analysis of the deposited data

Results flagged for a closer look

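In 5 genes 1 mouse lay far from the other 3 of its age by Dixon's test for 4 samples, which chance alone gives in about 1 of 20 groups. The screen took in both ages of the 43 measured genes, so 5 flagged groups are near that share. The genes are listed with no conclusion drawn from them. Of the S phase genes, Tk1 had its lowest old signal in mouse 2, at 70.6. Of the mitosis genes, Foxm1 was lowest among old mice in mouse 2, at 149.7, Kif20a was lowest among old mice in mouse 5, at 44.4, Ttk was highest among young mice in mouse 4, at 74.6, and Cdc20 was lowest among young mice in mouse 8, at 317.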

How the results depend on the processing

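No paired analysis was possible because the ages share no mouse number. Of 400 values of the 23 named members under other settings, 386 kept their direction and side of the threshold, 8 passed an adjusted p of 0.05 that had not, and 6 turned their sign. Those 6 were Mki67 without young mouse 3 (0.08) or 4 (0.28), with -0.47 to 0.28 over mice left out, E2f1 without old mouse 5 (-0.0056) or young mouse 3 (-0.00086), with -0.0056 to 0.26, and Foxm1 (-0.39) and Cenpf (0.13) as means of all probe sets. The 8 were Pcna, Mcm6 and Mcm4, as given above. All genes higher in old mice at an adjusted p numbered 140 with a floor of 32 or 64, 221 among brighter genes, 270 with a trended prior, 40 without moderation, 42 with mouse numbers as a term, 202 by a fold above 2 with an unadjusted p, and 8 to 24 with a mouse left out. Those lower numbered 109 and 119 with the floors, 220 among brighter genes, 217 with a trended prior, 11 as means of probe sets, 107 by the fold, and 3 to 24 with a mouse left out. S phase members higher at an adjusted p were 1 with either floor, and 3 among brighter genes and with a trended prior. At an unadjusted p they were 0 by the fold above 2, 4 among brighter genes and 5 as means of probe sets. They were also 5 without the probe sets that may hybridise to several transcripts. With a mouse left out they were 6 or 7, and their median was 0.16 with a floor of 64. Mitosis members higher at an unadjusted p were 1 with centred arrays, among brighter genes, as means of probe sets, with a trended prior and without moderation, 0 by the fold, and 0 to 3 with a mouse left out. Mitosis members lower were 0 among brighter genes and by the fold, 2 as means of probe sets and with mouse numbers as a term, and 0 to 6 with a mouse left out, the 6 without young mouse 8. Restricting to brighter genes tests fewer genes and also refits the variance prior on those genes alone, and the cause of the shifts was not tested. Most members lie at signals where arrays measure poorly.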
